A study of Mus musculus with 11 samples.

Results

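Chromosomes 7, 11 and 17 of the mouse carry many genes for their length, and chromosomes 3, 13 and 14 carry few. The regions described here are bins of 500 kb on these 6 chromosomes, chosen by position alone: the first 13 Mb and the last 10 Mb of each chromosome were left out. This left 600 bins on chromosomes 7, 11 and 17 (the gene-dense set) and 671 bins on chromosomes 3, 13 and 14 (the gene-poor set). All 20 chromosomes held 4348 bins with the same margins left out. In the ensemble map introduced below, 23 gene-dense and 5 gene-poor bins held no contact end, and 5069 bins of the whole genome held contact ends. Hi-C cuts crosslinked chromatin with a restriction enzyme, joins DNA ends that lie close together and reads the joined pairs, so each contact is a pair of fragment ends. The maps came from Th1 cells, CD4-positive helper T cells of the kind that makes interferon gamma. They were grown from spleens of male C57BL/6 mice with 1 µg/ml anti-CD3 for 3 days, enriched on beads against CD4 and expanded with 20 ng/ml IL-2, and all maps share this origin, strain and stimulation. There were 9 single cells cut with Bgl II, 1 single cell (cell 8) cut with Dpn II, a pooled single-cell file and 1 ensemble map of a cell population cut with Bgl II.

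In the nucleus each chromosome keeps to a territory of its own, and contacts between chromosomes (trans contacts) form where territories meet. Within a chromosome (cis contacts), contact frequency falls with distance, short stretches called domains contact themselves more than their neighbours, and megabase regions sort into an active, gene-rich compartment and an inactive one. Gene-rich human chromosomes are known to lie nearer the middle of the nucleus than gene-poor ones. Many genes of helper T cells lie on these 6 chromosomes. Per the RefSeq annotation, chromosome 11 carries Tbx21, which encodes T-bet, the transcription factor that defines Th1 cells, and also Il4 and Il13, cytokines of the rival Th2 fate. Chromosome 17 carries the cytokine genes Tnf and Lta, and chromosome 7 carries Itgal, which encodes an integrin chain of T cells. On the gene-poor side, chromosome 3 carries Il2 and Il21, cytokines made by activated T cells, chromosome 13 carries Gzma and chromosome 14 carries Gzmb, which encode granzymes.

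The labels of the sets were checked against the annotation. The gene-dense set had 13.04 protein-coding genes per Mb and the gene-poor set 6.78, against 8.41 over 20 chromosomes. Chromosomes 7, 11 and 17 ranked 1, 2 and 4 of 20, with chromosome 19 between them, and chromosomes 14, 13 and 3 ranked 13, 15 and 16, so that chromosomes 1, 12, 18 and X, which ranked 17, 20, 19 and 18, were poorer still than the gene-poor set. These counts cover whole chromosomes and come from a later assembly than the maps. The density of Bgl II fragment ends seen in the ensemble differed less between the sets than that of genes. The gene-dense set had 552 Bgl II fragment ends per Mb and the gene-poor set 531. Within the gene-dense set chromosome 11 had the most of any chromosome, at 624.98 per Mb, and chromosome 7 ranked 19, at 500 per Mb, with 23 bins that held no fragment end. These densities count all bins as sequence, so the empty bins lower the value of chromosome 7 and of its set. The sets also differed in chromosome length, since chromosome 17 spans 92.2 Mb and chromosome 11 spans 119 Mb, against 157 Mb for chromosome 3, 117 Mb for chromosome 13 and 119 Mb for chromosome 14. Chromosome 7 spans 149 Mb.

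Depth was 11156 to 30665 contacts per Bgl II cell and 12225 contacts for cell 8, against 2294791 for the pooled file and 51834382 for the population map. The pool also holds every contact of the 9 cells, so values are also given for the rest of the pool, 2119836 contacts from none of the 9. Each comparison was made within a cell, as 1 difference of the gene-dense minus the gene-poor set, and tested over the 9 Bgl II cells with an exact two-sided sign-flip permutation test, whose smallest possible p is 0.00391. There were 11 such tests, with Benjamini-Hochberg adjustment over all 11 and a threshold of 0.05, and 1 of them passed. Nothing in the labels says that the cells came from separate animals or cultures, so SDs and p-values describe the spread between these cells, which may be technical.

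The test that passed concerned the kind of chromatin that the sets met on other chromosomes. Bins were placed in class 1 or class 2 from the ensemble map, by the sign of the leading pattern in each chromosome's own contact correlations, with class 1 the side denser in fragment ends. These classes are relative within a chromosome and correspond in construction to the usual active and inactive compartments, though no expression or gene data went into them. Only trans contacts with the 14 chromosomes outside both sets were counted, so that both sets had the same possible partners. In the 9 Bgl II cells the share of these partners in class 1 had a lowest value of 46.2%, a median of 52.4% and a highest of 58.7% for the gene-dense set, against 39.6%, 45.2% and 52.7% for the gene-poor set. The ranges of the sets overlapped between cells, but within each cell the gene-dense set was higher, in 9 of 9 cells. The means were 52.3% ± 4.73 for the gene-dense set and 46.3% ± 4.62 for the gene-poor set (SD, n = 9), and the difference was 6.09 ± 3.41 points (exact sign-flip permutation p = 0.00391, the smallest the test can give, adjusted p = 0.0430 over 11 tests). The difference ran between 1.99 points in cell 4 and 12.8 points in cell 7. The call did not hold with no margin left out (6.75 points, 8 of 9 cells) or without chromosome 3 (6.10 points, 8 of 9 cells), each with an adjusted p of 0.0859 by the exact permutation test, nor without chromosome 11, as given further on.

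These shares rested on few contacts per cell. Cell 1 had 196 such contacts on the gene-dense set, of which 58.7% met class 1 (95% Wilson interval 51.7% to 65.3%), and 265 on the gene-poor set, of which 51.3% did (45.3% to 57.3%). Intervals cover counting error only. In the rest of the pool, where 66307 contacts of the gene-dense set and 63791 of the gene-poor set could be classed, the shares were 52.9% and 45.8%, a difference of 7.03 points. In the ensemble they were 56.3% and 53.0%, a difference of 3.24 points. Cell 8 had 52.0% and 51.5%, a difference of 0.533 points, which lay within its counting intervals of 47.2% to 56.8% for the gene-dense set and 46.1% to 56.9% for the gene-poor set.

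**Figure D1:**
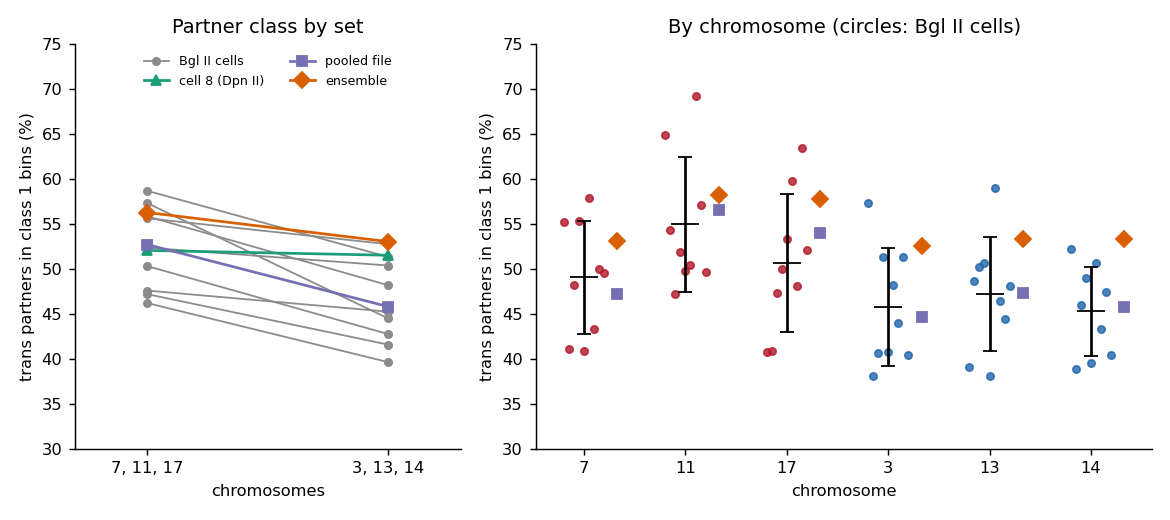
Left: share of trans partners on the other 14 chromosomes that lie in class 1 bins (%), for the gene-dense and the gene-poor set, with 1 line per map. Right: the same by chromosome, with 1 circle per Bgl II cell, the mean and SD over 9 cells in black, the pooled file as a square and the ensemble as a diamond. All 9 lines of Bgl II cells fall from left to right, by 1.99 to 12.8 points, and chromosome 11 has the highest mean, at 54.9%.

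The 3 gene-dense chromosomes did not stand equally high. Chromosome 11 met class 1 in 54.9% ± 7.52 of its partners, chromosome 17 in 50.6% ± 7.67 and chromosome 7 in 49.1% ± 6.31 (SD, n = 9). The gene-poor chromosomes 13, 3 and 14 had 47.2% ± 6.32, 45.8% ± 6.55 and 45.3% ± 4.97. Chromosome 11 lay above the gene-poor set's own value in 8 of 9 cells, chromosome 7 in 7 and chromosome 17 in 6. Of all 20 chromosomes, each with all the others as partners, chromosomes 11 and 17 ranked 1 and 2 in the rest of the pool (56.8% and 54.5%) and also in the ensemble (57.5% and 57.4%). Chromosome 7, the densest in genes, ranked 9 in both, at 47.6% and 53.2%, and chromosome 13 was close to it in the rest of the pool, at 47.2%. With chromosome 11 left out, the difference of the sets was 3.36 ± 3.14 points and no longer passed (exact permutation p = 0.0156, adjusted p = 0.0859, above 0 in 7 of 9 cells). Chromosome 11 is also the chromosome with the most fragment ends per Mb, and the part of this in the result was not tested.

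Over the 19 autosomes, as a description, the class 1 share of partners correlated with genes per Mb at Pearson's r = 0.72 and Spearman's rho = 0.74 in the rest of the pool, and at 0.71 and 0.71 in the ensemble. Its correlation with fragment ends per Mb, empty bins counted as sequence, was lower, with r = 0.53 in the rest of the pool and 0.55 in the ensemble. With the chromosome's own share of class 1 bins r was 0.53 in the rest of the pool and 0.30 in the ensemble. With chromosome length r was 0.0054 and -0.27. The autosomes share their libraries and their partners, so these points are not independent.

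The difference was also taken by the class of the member bin itself, a split added after the values had been seen. Class 1 bins of the gene-dense set met class 1 in 72.5% ± 9.38 of their partners, against 60.3% ± 4.84 for class 1 bins of the gene-poor set (SD, n = 9). Class 2 bins met class 1 in 35.0% ± 5.55 in the gene-dense set and in 32.6% ± 5.67 in the gene-poor set. For comparison, class 1 held 36.3% of classed bins over all 20 chromosomes, a share of bins and not of contact ends. Class 1 bins of both sets thus met class 1 well above that share, while the means of class 2 bins were close to it. The difference of the sets was 12.2 ± 7.68 points in class 1 bins (8 of 9 cells, exact permutation p = 0.00781, adjusted p = 0.0859) and 2.39 ± 4.36 points in class 2 bins (7 of 9 cells, exact permutation p = 0.141, adjusted p = 0.301). Neither passed, and whether these 2 differences differ from each other was not tested. In the rest of the pool class 1 bins had 72.0% in the gene-dense and 60.9% in the gene-poor set, and class 2 bins 36.1% and 32.1%. The ensemble had the same order with smaller steps, 63.4% and 57.9% in class 1 bins and 48.2% and 47.8% in class 2 bins. By chromosome, the class 1 bins of chromosomes 11, 17 and 7 stood at 74.1% ± 8.79, 72.4% ± 14.4 and 69.4% ± 11.2, those of chromosomes 14, 3 and 13 at 62.5% ± 6.38, 61.4% ± 8.73 and 56.5% ± 9.66.

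The make-up of the sets in classes was close to equal. Class 1 held 206 of 570 classed bins of the gene-dense set, or 36.1%, and 242 of 663 of the gene-poor set, or 36.5%, against 36.3% over all 20 chromosomes with the same margins left out. There is 1 ensemble map, so this comparison has no test, and its sign turned with the setting: the gene-dense set was higher by 0.57 points with classes from 500 kb bins and by 3.13 points with no margin left out. Chromosomes within a set differed more than the sets did. Class 1 made up 42.6% of chromosome 11, 34.7% of chromosome 17 and 31.4% of chromosome 7, against 43.8% of chromosome 13, 34.3% of chromosome 14 and 32.97% of chromosome 3. Over 19 autosomes the class 1 share correlated with genes per Mb at r = 0.12 and rho = 0.014. Because the classes are set within each chromosome, a chromosome that is active over most of its length cannot be told from one that is not by this share. Promoters were compared in base composition over whole chromosomes, from 250 bases before to 50 after the gene start in RefSeq. The median was 54.0% G and C in 6698 promoters of the gene-dense set and 51.0% in 4515 of the gene-poor set. Over all chromosomes listed it was 53.0%. The gene-dense chromosomes did not all stand high, with 55.3% for chromosome 11, 54.3% for chromosome 17 and 52.3% for chromosome 7. Chromosome 7 thus lay below the value over all chromosomes listed. The gene-poor chromosomes 3 and 14 had 51.7% and 51.3%, and chromosome 13 was lower still. The difference in promoters was not tested.

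The trans share, the percent of a set's contact ends whose partner lies on another chromosome, was lowest at 5.94% in cell 1, with a median of 17.1% and a highest value of 26.9% in cell 2, on the gene-dense set. On the gene-poor set it was lowest at 7.20% in cell 1, with a median of 16.3% and a highest value of 25.9% in cell 2. The cells differed far more from each other than the sets did within a cell. The means were 18.4% ± 7.06 and 16.7% ± 6.65 (SD, n = 9), and the difference of 1.70 ± 2.36 points was above 0 in 7 of 9 cells and did not pass (exact permutation p = 0.0664, adjusted p = 0.183). The exceptions were cells 1 and 5, and the largest difference was 5.58 points in cell 6. The pooled file had 21.2% on the gene-dense and 19.1% on the gene-poor set, and cell 8 had 24.5% and 20.7%. The ensemble had the opposite order, with 49.7% on the gene-dense and 51.6% on the gene-poor set.

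**Figure D2:**
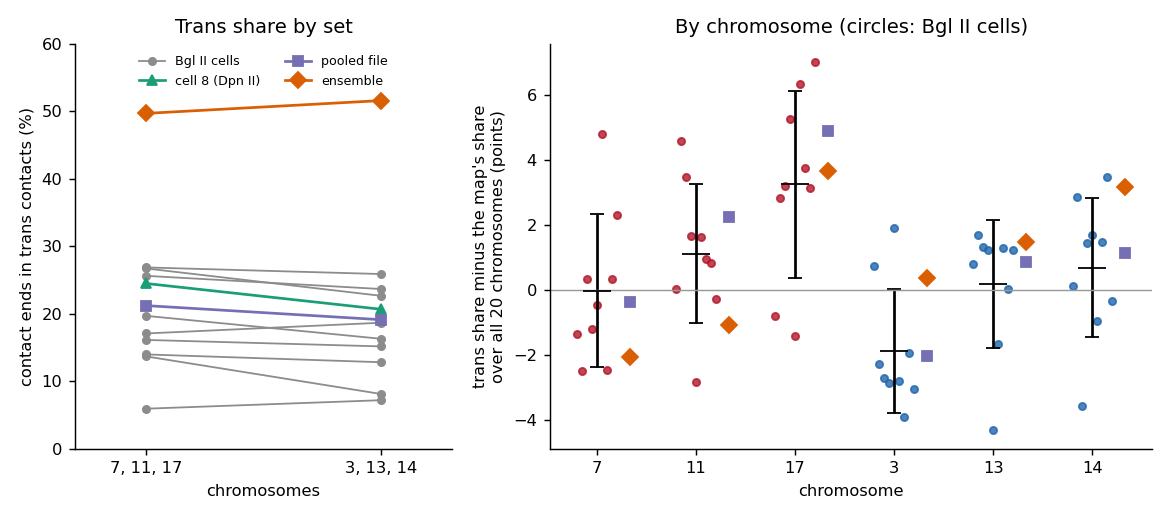
Left: contact ends in trans contacts (%) of the gene-dense and the gene-poor set, with 1 line per map. Right: each chromosome's trans share minus the same map's share over all 20 chromosomes, in percentage points, with 1 circle per Bgl II cell, mean and SD over 9 cells in black, the pooled file as a square and the ensemble as a diamond. Chromosome 17 lies highest among the 6 in the cells, at a mean of 3.25 points, and chromosome 3 lowest, at -1.88 points.

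By chromosome, the trans share followed length more closely than gene density. In the cells chromosome 17 stood 3.25 ± 2.87 points above the share of all 20 chromosomes, chromosome 11 stood 1.12 ± 2.15 above and chromosome 7 stood -0.025 ± 2.35 from it. Among the gene-poor chromosomes, 14 stood 0.69 ± 2.15 above, 13 stood 0.18 ± 1.97 above and 3 stood -1.88 ± 1.91 from it, so chromosomes 3 and 7, the longest of the 6, were the lowest of their sets. Over 19 autosomes the value correlated with chromosome length at r = -0.92 and rho = -0.87 in the mean of the Bgl II cells, at r = -0.90 in the rest of the pool and at r = -0.87 in the ensemble. Its correlation with genes per Mb was r = 0.34 in the cells, 0.41 in the rest of the pool and -0.088 in the ensemble. Between chromosomes of near-equal length, chromosome 11 differed from chromosomes 13 and 14 by 0.68 points, above 0 in 4 of 9 cells (exact permutation p = 0.391, adjusted p = 0.638). The difference of the sets with chromosome 3 left out was 0.72 points, again above 0 in 4 of 9 cells.

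In the rest of the pool chromosomes 11, 17 and 7 were set beside the autosomes within 5 Mb of their length. Chromosome 11 stood 2.32 points above the share of all 20 chromosomes, against 1.18 for chromosome 14, 1.13 for chromosome 9, 0.88 for chromosome 13 and 0.76 for chromosome 12. Chromosome 17 stood 5.06 points above, against 1.83 for chromosome 16 and 1.97 for chromosome 18. Chromosome 7 stood at -0.40 points, against -0.04 for chromosome 5, -1.11 for chromosome 4 and -1.89 for chromosome 6. Over the 9 Bgl II cells the mean of chromosome 17 was 3.25 ± 2.87 points (SD, n = 9). Chromosomes 16 and 18 had means of 2.17 and 2.75 points. Chromosome 11 had a mean of 1.12 points, against 1.15 for chromosome 9 and 0.69, 0.57 and 0.18 for chromosomes 14, 12 and 13. In the ensemble chromosome 11 instead lay at -1.08 points, close to chromosome 9 at -0.67. Chromosomes 12, 13 and 14 lay above it, at 1.83, 1.48 and 3.18. Chromosome 17 lay at 3.67 points in the ensemble, between chromosome 16 at 4.06 and chromosome 18 at 2.95. The ensemble also held 86.8 contact ends per fragment end on the gene-dense set and 70.0 on the gene-poor set, whereas the rest of the pool held 3.12 and 3.13. The ensemble file counts each pair of fragment ends once over many cells, and the part of this in the order of its trans shares was not tested.

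Class 1 bins had the higher trans share in both sets. In the cells it was 21.4% ± 8.05 in class 1 and 16.4% ± 6.54 in class 2 bins of the gene-dense set, and 19.1% ± 6.71 and 15.1% ± 6.68 in those of the gene-poor set (SD, n = 9). The difference of the sets was 2.28 ± 2.96 points in class 1 bins, above 0 in 7 of 9 cells (exact permutation p = 0.0391, adjusted p = 0.143), and 1.31 ± 2.49 points in class 2 bins, above 0 in 6 of 9 cells (exact permutation p = 0.164, adjusted p = 0.301). Neither passed. For chromosome 11 against chromosomes 13 and 14 the class 1 difference was 0.21 points in the cells, above 0 in 4 of 9. In the rest of the pool it was 0.043 points. The class 2 difference of these chromosomes was 0.97 points, above 0 in 6 of 9 cells, and 2.16 points in the rest of the pool. For the full sets the class 2 difference was 0.74 points without cell 6 and 0.80 points with no margin left out. The ensemble had -2.02 points in class 1 and -1.84 points in class 2 bins.

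Single bins spanned a wider range than the sets. A bin was ranked if it held 60 or more ends over all 10 cells together, as 460 gene-dense and 494 gene-poor bins did, and their medians were 18.3% and 17.05%. The bins were named for being the 3 highest and the 3 lowest of each set, so their values in the 10 cells are a description, and the rest of the pool, which did not choose them, gives a further reading. The highest gene-dense bins all lay on chromosome 17 (mm9). They were chr17:35500001-36000000 with 33 of 62 ends in trans, or 53.2% (95% Wilson interval 41.0% to 65.1%), chr17:34500001-35000000 with 42.3% and chr17:24000001-24500000 with 36.6%. In the rest of the pool these 3 bins had 36.9%, 40.7% and 34.3%, above the 95th percentile of gene-dense bins, 31.2%. The highest gene-poor bins were chr3:89500001-90000000 with 38.6%, chr3:88000001-88500000 with 36.5% and chr14:21500001-22000000 with 34.7%, and the rest of the pool had 28.9%, 34.3% and 27.8%, all above the 95th percentile of gene-poor bins, 27.3%. All 6 bins were class 1.

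The lowest gene-dense bins were chr11:38000001-38500000 with 3 of 60 ends in trans, or 5.0% (1.71% to 13.7%), chr7:125000001-125500000 with 5.95% and chr7:84500001-85000000 with 6.67%. The lowest gene-poor bins were chr14:96000001-96500000 with 3.90%, chr13:31500001-32000000 with 4.04% and chr3:143000001-143500000 with 4.21%. In the rest of the pool the low bins of the gene-dense set had 17.1%, 15.6% and 13.8%, against a median of 20.9%, and those of the gene-poor set 18.4%, 19.1% and 19.2%, against a median of 18.4%. The low gene-poor bins therefore did not stand low in contacts that had no part in choosing them. Class 2 held 5 of these 6 bins, and chr13:31500001-32000000 was class 1. Over 569 gene-dense and 655 gene-poor bins, as a description, the trans share in the rest of the pool correlated with that in the ensemble at r = 0.59 and r = 0.55.

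No excess of pairing between chromosomes of a set passed the test. Pairing was measured as observed over expected trans contacts, with the expectation set from each chromosome's trans total in that map, and 0.5 was added to both before log2 was taken. Among chromosomes 7, 11 and 17 the log2 value had a lowest of -0.87, a median of -0.12 and a highest of 1.47, and averaged -0.062 ± 0.76 (SD, n = 9, above 0 in 3 cells, exact permutation p = 0.809, adjusted p = 0.809). Among chromosomes 3, 13 and 14 it had a lowest of -2.04, a median of -0.077 and a highest of 1.06, and averaged -0.21 ± 0.88 (above 0 in 4 of 9 cells, exact permutation p = 0.543, adjusted p = 0.705). Between the sets it averaged 0.046 ± 0.27 (6 of 9 cells, exact permutation p = 0.586, adjusted p = 0.705), and pairing within the sets minus pairing between them averaged -0.18 ± 0.66 (3 of 9 cells, exact permutation p = 0.406, adjusted p = 0.638). Single cells moved these means: without cell 3, 5 or 6 the gene-dense mean was 0.014, 0.036 or 0.040, and without cell 4 the gene-poor mean was 0.015 and the mean between the sets -0.0015. The within minus between value was -0.32 without cell 1, -0.054 without cell 4 and -0.087 without cell 5.

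Cells differed widely in this measure, and some pairs among the 6 chromosomes had no contact at all in a cell. Cell 1 had 41 contacts among chromosomes 7, 11 and 17 where 14.5 were expected, and 49 among chromosomes 3, 13 and 14 where 23.2 were expected, and was the highest cell for both sets. Cell 4 had 67 contacts among the gene-dense chromosomes where 48.8 were expected, and 14 among the gene-poor ones where 59.1 were expected. In the ensemble the log2 values were 0.019 for the gene-dense set, -0.0028 for the gene-poor set and -0.011 between them, and in the rest of the pool -0.049, -0.082 and -0.023. With an SD of 0.76 and 0.88 between cells, small shifts in pairing were not detectable with 9 cells.

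**Figure D3:**
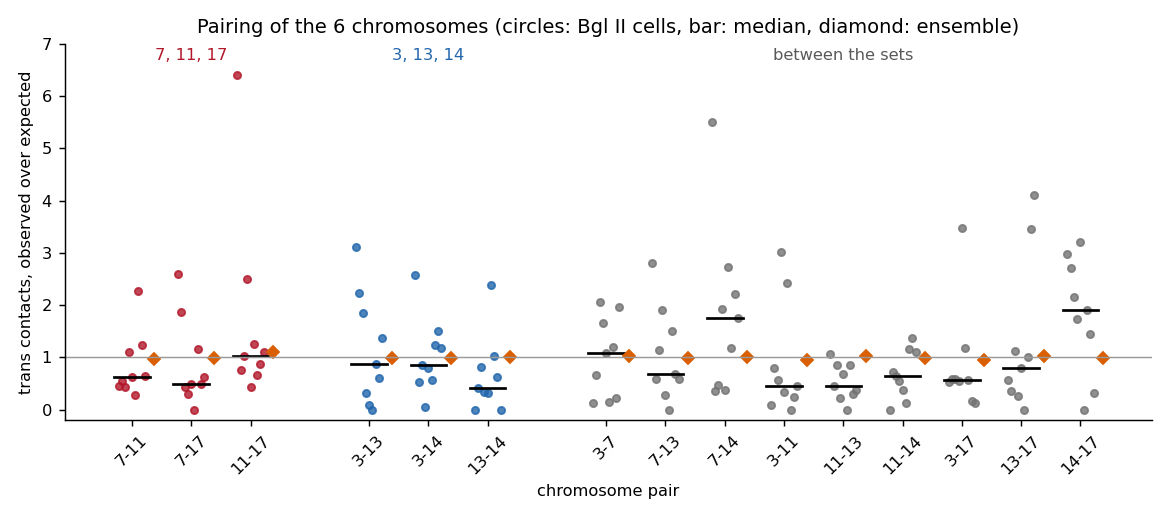
Observed over expected trans contacts (linear scale) for the 15 pairs among the 6 chromosomes, with 1 circle per Bgl II cell, the median as a bar and the ensemble as a diamond. Ensemble values lie between 0.95 and 1.10, whereas single cells range from 0 to 6.41, the highest being the pair 11-17 in cell 1.

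By pair, 6 of the 15 were above 1 in the ensemble, where 51.1% of all 190 pairs were, and 6 of the 15 in the rest of the pool, where 48.4% of all pairs were. Of the 15, 2 pairs, 14-17 (7 of 9 cells) and 7-14 (6 of 9 cells), lay above 1 in at least 6 cells, as did 7.37% of all 190 pairs. Both join a gene-dense to a gene-poor chromosome, as do 9 of the 15 pairs, and their ensemble values were 0.98 and 1.00. The pair 11-17, of 2 gene-dense chromosomes, had the highest ensemble value of the 15, 1.10, above the 95th percentile of all pairs, 1.06. In the cells it had a median of 1.04 and was above 1 in 5 of 9 cells, with 29 contacts where 4.52 were expected in cell 1, and the rest of the pool gave 1.06. The other pairs of the gene-dense set were lower, with 0.97 for 7-11 and 0.99 for 7-17 in the ensemble and 0.96 and 0.87 in the rest of the pool. Among the gene-poor pairs, 3-13 had 0.99, 3-14 had 1.00 and 13-14 had 1.01 in the ensemble, and 0.93, 0.96 and 0.95 in the rest of the pool. The pair 3-11 was the lowest of the 15 in the rest of the pool, at 0.80, with 0.95 in the ensemble, and lay above 1 in 2 of 9 cells, 1 of which, cell 4, held 47.1% of the 9 cells' contacts between them.

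The leading partners of the 6 chromosomes were named by rule as the highest and lowest in the ensemble. Chromosome 19, the short chromosome that ranks between 11 and 17 in gene density, led for chromosome 11 with an observed over expected value of 1.13 in the ensemble and 1.38 in the rest of the pool, and this second value was the highest of all 190 pairs there. It also led for chromosome 17 in the rest of the pool, at 1.22, with 1.08 in the ensemble, where chromosome 11 led. Chromosome 19 was the leading ensemble partner of chromosomes 13 and 14 too, at 1.06 and 1.03, and was the lowest partner of chromosomes 7 and 3, at 0.96 and 0.91, so its place did not divide the sets. Chromosome X was the lowest ensemble partner of chromosomes 11 and 17, at 0.91 and 0.94, and the highest of chromosomes 7 and 3, at 1.07 and 1.04. For chromosome 13 the lowest was chromosome 2, at 0.97, and for chromosome 14 it was chromosome 17, at 0.98, a pair that stood at 1.10 in the rest of the pool. In single cells chromosomes 11 and 19 were above 1 in 4 of 9 cells.

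In a single cell a chromosome met most of the other 19, with 17.4 ± 2.02 partners on average in the gene-dense set and 17.1 ± 2.62 in the gene-poor set (SD, n = 9), but unequally. The leading partner of a chromosome took 18.7% ± 5.86 of its trans contacts on average in the gene-dense set and 20.2% ± 4.79 in the gene-poor set (SD, n = 9), against 8.54% and 8.34% in the far deeper ensemble. The leading 3 partners took 43.7% ± 10.6 and 44.3% ± 8.54. In each cell the pair with the most contacts above expectation, by number and not by ratio, was named for each set. A named pair therefore need not have the highest ratio of its cell. In the gene-dense set these ran from 2.49 times expectation (chromosomes 11 and 6 in cell 2, 84 contacts) to 7.41 times (chromosomes 17 and 15 in cell 4, 85 contacts where 11.5 were expected). In the gene-poor set they ran from 2.07 times (chromosomes 3 and 7 in cell 3, 60 contacts) to 5.01 times (chromosomes 13 and 6 in cell 1, 40 contacts where 7.98 were expected). The 9 Bgl II cells gave 8 different pairs in each set, and 2 of the 9 in each set had their partner among the 6 chromosomes. The repeats were 13-17 for the gene-dense set, in cells 9 and 10, and 6-13 for the gene-poor set, in cells 1 and 6. Ensemble values of these pairs lay between 0.98 and 1.08 for the gene-dense and between 0.99 and 1.03 for the gene-poor set. In cell 8 the pairs were 11-18 with 51 contacts, 3.68 times expectation, and 3-17 with 42 contacts, 3.89 times.

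Cis contacts fell off somewhat more steeply with distance on the gene-dense set in most maps, by a difference that did not pass. The slope of contact density on distance, on log10 scales between 100 kb and 10 Mb, had a lowest value of -1.19, a median of -1.01 and a highest of -0.89 in the gene-dense set, against -1.06, -0.99 and -0.84 in the gene-poor set. The means were -1.02 ± 0.080 and -0.98 ± 0.064 (SD, n = 9), and the difference of -0.034 ± 0.054 was below 0 in 7 of 9 cells and did not pass (exact permutation p = 0.0898, adjusted p = 0.198). The rest of the pool had slopes of -1.07 and -1.01, the ensemble -0.96 and -0.86, and cell 8 -1.02 and -0.83, each steeper in the gene-dense set. Without cell 10 the mean difference over cells was -0.020. The value depended on the range of distances: between 100 kb and 1 Mb it was -0.12 ± 0.11, below 0 in 8 of 9 cells (exact permutation p = 0.0234, adjusted p = 0.0859), and between 500 kb and 20 Mb it was 0.025, with the opposite sign. By chromosome the ensemble slopes were -0.95, -0.96 and -0.96 for chromosomes 7, 11 and 17 and -0.87, -0.86 and -0.86 for chromosomes 3, 13 and 14, so that in this 1 map the sets did not overlap.

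**Figure D4:**
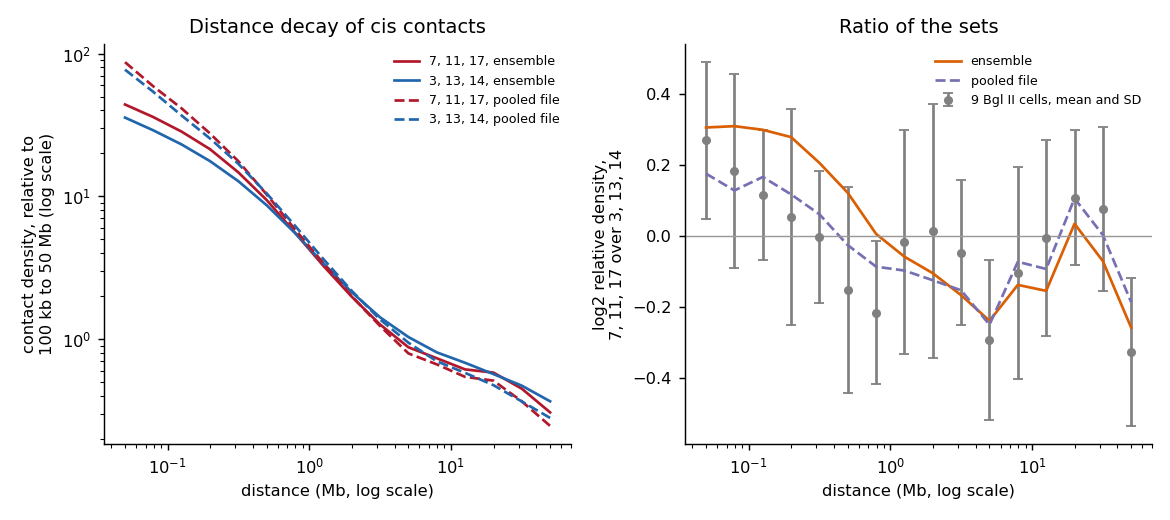
Left: density of cis contacts by distance (both axes logarithmic), relative to each set's own density between 100 kb and 50 Mb, in the ensemble and the pooled file. Right: log2 of the gene-dense over the gene-poor relative density, with grey points for the mean and SD over the 9 Bgl II cells. In the ensemble the ratio is above 0 below 1 Mb and below 0 between 2 and 10 Mb, while the cells scatter around 0 in most distance classes.

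In broad distance classes, the ensemble's log2 ratio of relative densities, gene-dense over gene-poor, was 0.18 between 100 kb and 1 Mb, -0.063 between 1 and 2 Mb, -0.16 between 2 and 10 Mb, -0.085 between 10 and 20 Mb and -0.075 between 20 and 50 Mb. The rest of the pool had 0.055, -0.099, -0.16, -0.039 and -0.0015. In the Bgl II cells the means were -0.026 ± 0.12, -0.028 ± 0.28, -0.11 ± 0.16, 0.022 ± 0.18 and 0.027 ± 0.22 (SD, n = 9), each smaller than its SD. The log2 density at 10 to 50 Mb over that at 100 kb to 1 Mb averaged -4.55 ± 0.46 in the gene-dense and -4.61 ± 0.47 in the gene-poor set, a difference of 0.055 ± 0.23 (exact permutation p = 0.641, adjusted p = 0.705). Cell 2 alone had a difference of 0.61, and without it the mean was -0.014. The ensemble had -0.26 and the rest of the pool -0.067.

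The median ensemble domain was longer by 1 bin on the gene-dense chromosomes. They were cut at minima of insulation, the contact across a position, in bins of 50 kb. The 355 domains of the gene-dense set had a median of 700 kb (quartiles 500 and 925 kb), and the 443 of the gene-poor set a median of 650 kb (400 and 900 kb), against 650 kb over the autosomes. The domains of 1 map are no replicates, so there is no test, and with an insulation window of 250 kb in place of 500 kb both medians were 350 kb. By chromosome the medians were 650, 750 and 700 kb for chromosomes 7, 11 and 17 and 650, 700 and 600 kb for chromosomes 3, 13 and 14. Long domains were as frequent in both sets, with 11.3% of domains at 1200 kb or longer in each. Class 1 domains were the longer ones in both, with medians of 800 and 650 kb in class 1 and class 2 of the gene-dense set, against 750 and 575 kb in the gene-poor set. The longest gene-dense domain was chr7:107350001-109650000 (mm9), of 2300 kb, and the longest gene-poor domain was chr13:54100001-56900000, of 2800 kb, and both were class 1.

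Contacts of 50 kb to 1 Mb lay within the ensemble's domains in both sets of every single cell more often than domain lengths and contact distances alone would give. In the ensemble such an excess follows from the way the domains were cut from that map, so only its size by set is described. In the cells 71.1% ± 2.05 of these contacts lay within 1 domain in the gene-dense set, where 65.0% ± 1.66 was expected, and 69.9% ± 1.90 in the gene-poor set, where 61.7% ± 1.26 was expected. The excess over expectation had a lowest value of 3.41, a median of 6.39 and a highest of 8.31 points in the gene-dense set, against 5.06, 8.40 and 9.84 points in the gene-poor set. It averaged 6.10 ± 1.47 and 8.13 ± 1.48 points (SD, n = 9), and the difference of -2.03 ± 1.80 points was below 0 in 7 of 9 cells and did not pass (exact permutation p = 0.0156, adjusted p = 0.0859). The rest of the pool had 6.14 and 7.51 points, the ensemble 6.44 and 8.68 and cell 8 4.67 and 6.37, each lower in the gene-dense set. The expected share counted bins without a fragment end, 23 in the gene-dense and 5 in the gene-poor set, as parts of domains. The size of the gap depended on how domains were cut. With an insulation window of 250 kb the mean over cells was -0.72 points, while the ensemble's gap of -2.23 points was -0.35 with a window of 1 Mb and -0.48 with a prominence of 0.2. With cell 8 added to the 9 cells the mean difference was -1.99 points, and the adjusted p was 0.0430 by the same exact permutation test.

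**Figure D5:**
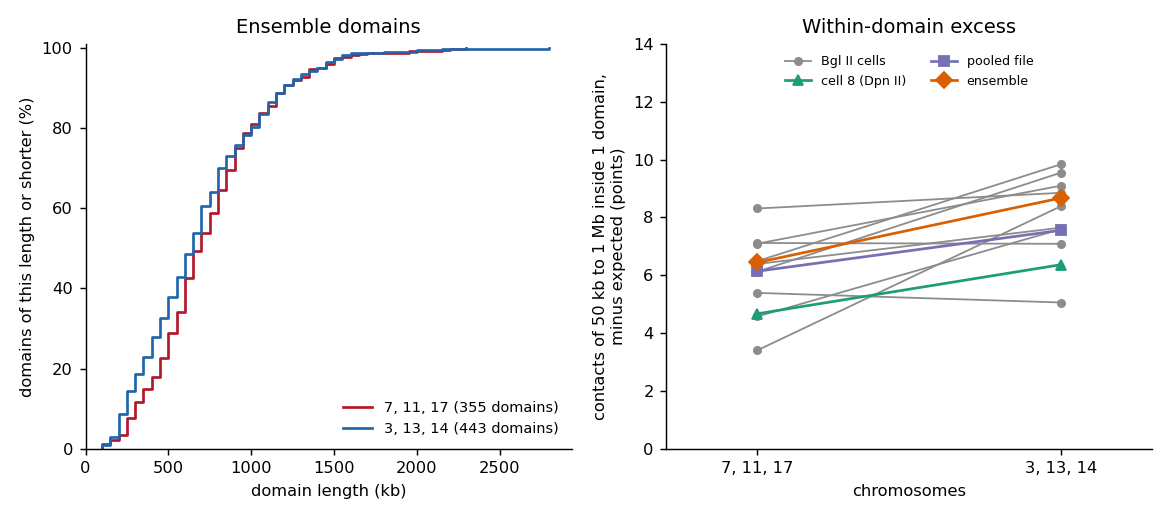
Left: cumulative share of ensemble domains (%) by length (kb) for the gene-dense and the gene-poor set. Right: share of cis contacts of 50 kb to 1 Mb that lie inside 1 domain minus the expected share, in percentage points, with 1 line per map. The medians are 700 and 650 kb, and the excess is lower on the gene-dense set in 7 of the 9 Bgl II cells.

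The chromosomes did not divide cleanly by set in this measure either. Chromosome 7 had the lowest excess of the 6, at 3.60 ± 2.39 points in the cells, 3.09 in the rest of the pool and 4.17 in the ensemble. Chromosomes 17 and 11 had 7.55 ± 5.56 and 7.39 ± 3.14 points, within the range of the gene-poor chromosomes 3, 14 and 13, which had 9.35 ± 2.51, 7.77 ± 3.13 and 6.81 ± 4.03 points (SD, n = 9). With chromosome 7 left out the difference of the sets was -0.74 points in the cells (adjusted p = 0.594 by the exact permutation test) and 0.38 points in the rest of the pool, and chromosome 11 against chromosomes 13 and 14 gave 0.11 and 0.94 points. Chromosome 7 also had 23 bins without a fragment end, against 2 on chromosome 13, 3 on chromosome 14 and none on chromosomes 3, 11 and 17. Such stretches hold no contacts and no boundaries, but the expected share counted them as parts of domains, which raises it. The part of this in the low excess of chromosome 7, and in the gap between the sets, was not tested.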

How the data were processed

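The deposited files list genomic positions, 1 contact per line with both fragment ends and no read number, per the file headers. Positions refer to mm9, as the submitters' processing notes state. Neither the aligner nor any read filter was given in the sources used here. In cell 8, 3 contacts with an end outside chromosomes 1 to 19 and X were left out. Computation used Python 3.11.15 with scipy 1.17.1, numpy 2.4.6 and pandas 2.3.3, and figures were drawn with matplotlib 3.10.9. Classes came from the balanced ensemble (50 iterations, 1 Mb bins), and domains from 50 kb bins with a 500 kb window and a prominence of 0.1. Expected trans counts came from an iterative proportional fit without cis contacts. Tests were checked on simulated maps whose contacts were drawn independently of each other. Such maps lack the wide spread of pairing between the real cells, so the check does not cover it.

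The members, classes and lists were chosen with earlier results of these data known. Regions were named by rule: for each of the 6 chromosomes its highest and lowest ensemble partner, in each cell the pair with the largest number of contacts above expectation, in each set the 3 highest and 3 lowest bins by trans share with at least 60 ends, and the longest domain. Highest and lowest partners in the rest of the pool were added. Gene counts and promoters came from RefSeq (GRCm38.p6), and no gene was placed on an mm9 region, so no sequence is shown. Alternatives covered margins, distance ranges, windows, class bins, chromosomes left out, cell 8 and each cell left out, and some were added after the values were seen.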

Additional observations from a re-analysis of the deposited data

Results flagged for a closer look

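Among 51 measures, each with 9 values from the Bgl II cells, 4 held an extreme value by Dixon's criterion at the 95% level, which chance alone flags in about 1 measure in 20. The decay slope of cell 4 on the gene-poor set, -0.84, was shallower than in the other cells, and so was its slope on chromosome 13, -0.82. The slope of cell 10 on chromosome 11, -1.18, was steeper than in the other cells. The far to near density of cell 2 differed by 0.61 (log2) between the gene-dense and the gene-poor set.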

How the results depend on the processing

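The share of trans partners in class 1 was higher on the gene-dense set under all 14 alternatives other than leaving out a cell, by 2.39 to 12.2 points, and kept passing in 8 of them. It no longer passed with no margin left out (6.75 points), in class 1 member bins alone (12.2), in class 2 member bins alone (2.39), for chromosome 11 against 13 and 14 (8.70), without chromosome 11 (3.36) and without chromosome 3 (6.10); adjusted p-values over the alternatives ran between 0.0215 and 0.301. Leaving out each cell gave 5.25 to 6.60 points, with an adjusted p of 0.0859 each time, from the smallest exact p that 8 cells allow, so those runs say nothing on its stability. Pairing among the gene-dense chromosomes turned to 0.012 with no margin left out. Without single cells the means ran between -0.25 and 0.040 among the gene-dense chromosomes, between -0.37 and 0.015 among the gene-poor ones, between -0.0015 and 0.10 between the sets, between -0.32 and -0.054 for within minus between, between -0.043 and -0.020 for the slope, and between -0.014 and 0.076 for the far to near density. The slope difference turned to 0.025 for 500 kb to 20 Mb, and the within-domain excess to 0.11 for chromosome 11 against 13 and 14; with cell 8 added, the excess differed by -1.99 between the sets and passed. The share of class 1 bins turned to 0.57 points with 500 kb classes and to 3.13 with no margin left out. Domain medians differed by 0 kb with a 250 kb window, and 3 of the 15 pairs, in place of 6, were above 1 in the ensemble with expectation from the product of trans totals. The causes were not tested. Classes without balancing gave no value, since 15 of 20 chromosomes fell almost wholly into 1 class. The trans share difference kept its sign and did not pass under all 13 alternatives, at 0.68 to 3.50 points. No paired analysis was possible because the labels give no number that joins the ensemble to a cell; the sets were already compared within each cell. Depth also limits the single cells, with 196 classed trans contacts on the gene-dense set in cell 1.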
